A study of Bos taurus with 16 samples.

Results

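STAR, TSPO and SCARB1 are 3 genes that bring cholesterol to the steroid-making machinery of an ovarian cell. They were followed here in bovine theca interna cells, the androgen-producing layer of the follicle wall. All probe sets that the platform annotation assigns to exactly 1 of these symbols were taken, which gave 3 of 24016 probe sets on the Affymetrix bovine GeneChip, 1 for each gene among 9155 named genes. Their Entrez gene numbers are 281507 for STAR, 281033 for TSPO and 282346 for SCARB1. Cells were pooled from many follicles of adult slaughterhouse ovaries and kept for 6 days in serum-free primary culture. Over the 4 days from day 3 4 treatments were compared. The control cultures were left without added hormone. A second group received 160 pg/ml of LH, the pituitary luteinising hormone, and another received BMP6, a growth factor of the bone morphogenetic protein family, at 10 ng/ml. In the last group, LH+BMP6, the 2 were given together. Each group held 4 arrays, 16 in all, and per the labels the experiment was repeated on different batches of ovaries. The cells had no intact follicle around them and were not sorted, so each array is a mixture of the cells that such cultures hold.

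Steroid synthesis starts from cholesterol. SCARB1 (SR-B1) is a cell-surface receptor that takes up cholesteryl esters from high-density lipoprotein. STAR moves cholesterol from the outer to the inner mitochondrial membrane, the acutely regulated and rate-limiting step of steroid synthesis, where CYP11A1 cleaves its side chain with electrons from the ferredoxin FDX1. TSPO, once called the peripheral benzodiazepine receptor, is a cholesterol-binding protein of the outer mitochondrial membrane whose role in steroid synthesis is debated. In theca cells LH acts through cyclic AMP, and STAR is among its classic targets, while BMP6 acts through SMAD transcription factors and is known to restrain theca androgen output.

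Values are log2 signals from robust multi-array averaging, and a difference of 1 is therefore a factor of 2. The signal of an array had its lower quartile at 4.31 to 4.43, its median at 6.10 to 6.16 and its upper quartile at 7.87 to 7.94. The spiked hybridisation controls (9 probe sets) averaged 8.66 to 8.71 on control replicates 1 and 3 and LH replicate 1, below the 9.84 to 10.17 of the 13 other arrays. These 3 are called the dim-spike arrays here. The theca markers INSL3, CYP17A1, LHCGR and HSD3B1 averaged 9.92 to 11.54 per array without BMP6 and 6.57 to 7.60 with it. By group mean 0 of these 4 lay below the lower quartile of the arrays, although CYP17A1 reached 4.26 on BMP6 replicate 4. Actin probe sets at the 3′ end exceeded those at the 5′ end, a gap that widens as RNA breaks down, by 2.20 ± 0.35 (SD, n = 4) on control arrays and 2.10 ± 0.16 on LH arrays. On BMP6 arrays the gap was 1.86 ± 0.28, and on LH+BMP6 arrays 1.72 ± 0.28. The part of these measures in the results was not tested. The 5 granulosa markers averaged 4.32 to 4.89 and the 4 red blood cell markers 4.49 to 4.74 on the 16 arrays. In cultures measured in bulk, fewer cells of a type and less RNA per cell cannot be told apart. Differences were tested with limma over all 16 arrays, with Benjamini-Hochberg adjustment over the 24016 probe sets. Each is a log2 difference ± SE between groups of n = 4, where the SE comes from the spread pooled over all 4 groups. The word "called" means an adjusted p under 0.05.

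STAR was high with LH, intermediate in control and low with BMP6, and it differed widely between arrays treated alike. It stood at 8.52, 8.36, 8.21 and 8.72 in control replicates 1 to 4, a mean of 8.46 ± 0.22 (SD, n = 4). With LH it stood at 11.47, 9.49, 9.34 and 9.49, a mean of 9.95 ± 1.02. All 4 LH arrays lay above all 4 control arrays, with LH replicate 1 far above the other 3. With BMP6 the signals were 5.73, 5.24, 8.18 and 7.72 (6.72 ± 1.45), and with LH+BMP6 they were 5.03, 6.10, 7.81 and 8.01 (6.74 ± 1.42). Every array with BMP6 lay below every array without it, but BMP6 replicate 3 lay only 0.03 below the lowest control. From the lowest to the highest of the 16 arrays STAR spanned 6.43 log2 units, an 86.5-fold range.

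**Figure D1:**
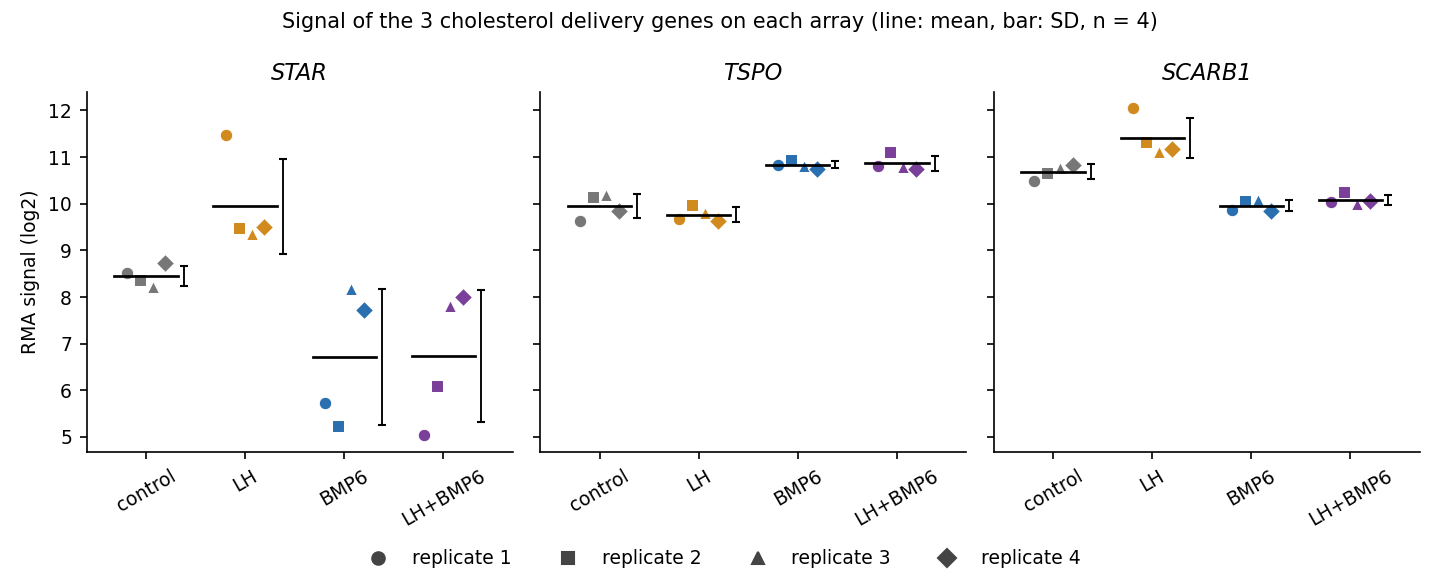
RMA signal (log2, vertical axis) of STAR, TSPO and SCARB1 on each of the 16 arrays by treatment group (horizontal axis). Points are arrays with a symbol for each replicate number, horizontal lines are group means and bars to their right are SDs of 4 arrays. STAR with BMP6 falls into a pair of arrays at 5.24 and 5.73 and a pair at 7.72 and 8.18, while TSPO with BMP6 lies between 10.75 and 10.93 on all 4.

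BMP6 added to LH lowered STAR 9.25-fold on average (-3.21 ± 0.68, adjusted p = 0.00264), and the lowest LH array lay 1.33 above the highest LH+BMP6 array. By replicate number the differences were uneven, at -6.43, -3.39, -1.53 and -1.49. In this comparison 10 of the 24016 probe sets had a larger difference in either direction. The value was -2.70 without LH replicate 1 (adjusted p = 0.0119). Against control, STAR differed by -1.74 ± 0.68 with BMP6 (adjusted p = 0.0901) and by -1.72 ± 0.68 with LH+BMP6 (adjusted p = 0.0904), and neither was called. Without BMP6 replicate 3 the first was called at -2.23 (adjusted p = 0.0371). Without LH+BMP6 replicate 4 the second was called at -2.14 (adjusted p = 0.0453), as it was with only the arrays compared in the fit (adjusted p = 0.0435). LH raised the mean by 1.49 ± 0.68 over control (adjusted p = 0.914), which was not called although 4 of all probe sets had a larger difference. That SE is pooled over groups whose SDs ran from 0.22 in control to 1.45 with BMP6. With only LH and control arrays in the fit, the SE of this difference was 0.39 (adjusted p = 0.936, limma). Between arrays of the same replicate number the differences were 2.94, 1.12, 1.13 and 0.77. Without LH replicate 1 the difference was 0.98 (adjusted p = 0.915), and without the 3 dim-spike arrays, which include it, the value was 0.90.

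The spread of STAR stood apart from that of the other probe sets. Its SD between arrays of the same group, pooled over the 4 groups, was 1.14, against a median of 0.14 over all 24016 probe sets, and 1 probe set, which has no gene name in the annotation, had a larger one. Among the 4 BMP6 arrays 0 probe sets had a larger SD than STAR, and among the 4 LH+BMP6 arrays also 0. In control its SD was 0.22, and 3310 probe sets had a larger one. In both groups with BMP6 the low arrays were replicates 1 and 2 (5.03 to 6.10) and the high ones replicates 3 and 4 (7.72 to 8.18). The labels do not say array by array whether a number marks a shared batch of ovaries. On the same 4 BMP6 arrays NR5A1, the orphan nuclear receptor that drives steroidogenic genes, stayed within 7.90 to 7.99, CYP11A1 within 8.81 to 9.36 and FDX1 within 11.32 to 11.36. The theca markers HSD3B1 and LHCGR ranged more widely there, from 8.55 to 9.94 and from 5.40 to 6.12. INSL3, the peptide hormone of theca cells, spread as widely as STAR (8.96, 10.12, 7.60 and 6.85), with its higher values on replicates 1 and 2, where STAR was low. With LH+BMP6 INSL3 was highest on replicate 4 (10.28) and lowest on replicate 3 (7.59).

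**Figure D2:**
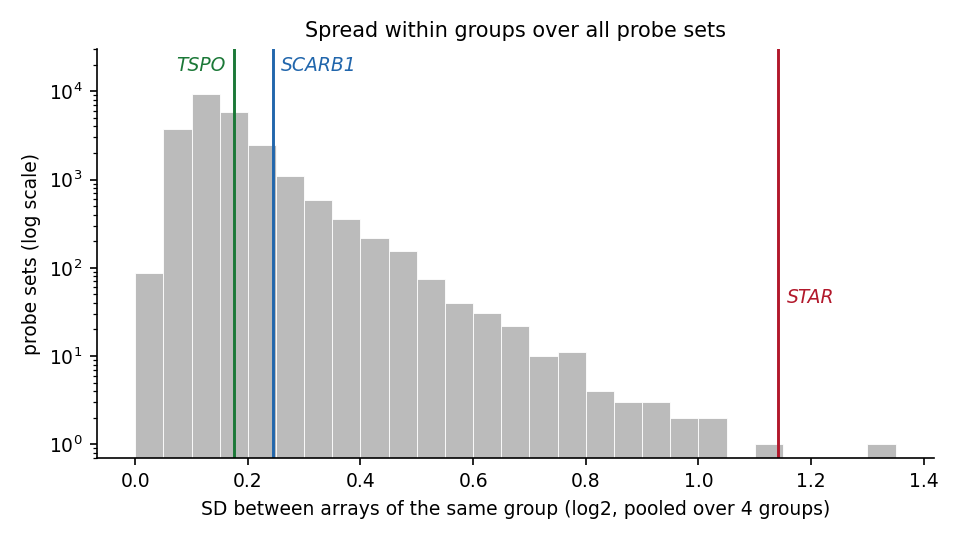
Number of probe sets (vertical log axis) by the SD between arrays of the same group, pooled over the 4 groups (horizontal axis, log2 units, bins of 0.05). Coloured lines mark TSPO at 0.18, SCARB1 at 0.24 and STAR at 1.14, which lies near the end of the distribution.

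SCARB1 took the same order of groups as STAR with far less spread. It stood at 10.48, 10.65, 10.77 and 10.84 in control (10.69 ± 0.16, SD, n = 4) and at 12.05, 11.32, 11.11 and 11.17 with LH (11.41 ± 0.43). With BMP6 it stood at 9.87, 10.06, 10.07 and 9.84 (9.96 ± 0.12), and with LH+BMP6 at 10.03, 10.25, 10.00 and 10.05 (10.08 ± 0.11). Every LH array lay above every control array, and every array with BMP6 lay below every control array. BMP6 lowered SCARB1 1.65-fold from control (-0.72 ± 0.15, adjusted p = 0.00279) and 2.51-fold from LH (-1.33 ± 0.15, adjusted p = 1.35e-05). LH+BMP6 was 1.52-fold below control (-0.60 ± 0.15, adjusted p = 0.00971). These 3 falls were seen in 4 of 4 replicate numbers. LH alone gave a difference of 0.73 ± 0.15 (adjusted p = 0.377), which was not called. It ranked 11 of 24016 probe sets by p value in that comparison, and by replicate number the differences were 1.57, 0.67, 0.33 and 0.34. As for STAR, LH replicate 1 was the highest array. Without it the difference was 0.52 (adjusted p = 0.225), and without the 3 dim-spike arrays the value was 0.46 (adjusted p = 1.00).

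TSPO moved the other way. Control arrays stood at 9.64, 10.14, 10.19 and 9.84 (9.95 ± 0.26, SD, n = 4) and LH arrays at 9.66, 9.97, 9.81 and 9.63 (9.77 ± 0.15). BMP6 arrays stood at 10.83, 10.93, 10.82 and 10.75 (10.83 ± 0.07) and LH+BMP6 arrays at 10.81, 11.11, 10.79 and 10.75 (10.86 ± 0.16). The 8 arrays with BMP6 all lay above the 8 without it, and within each of these sets the ranges with and without LH overlapped. BMP6 raised TSPO 1.84-fold over control (0.88 ± 0.11, adjusted p = 5.25e-05) and 2.14-fold over LH (1.10 ± 0.11, adjusted p = 5.66e-06), and LH+BMP6 raised it 1.88-fold over control (0.91 ± 0.11, adjusted p = 3.85e-05). All 3 rises were present in 4 of 4 replicate numbers, between 0.60 and 1.19. LH alone gave -0.19 ± 0.11 (adjusted p = 0.926), with lower values in 3 of 4 numbers. TSPO is also abundant in macrophages. Of 9 leukocyte and macrophage markers, CD14 was called higher with BMP6 (1.13 ± 0.24, adjusted p = 0.00286) and 0 were lower. This is 11.1% of the 9 markers, below the 18.1% called over all probe sets. With LH+BMP6 against LH, 4 were higher and 0 lower (44.4%, against 20.3% of all probe sets). Among the 4 was the pan-leukocyte gene PTPRC (0.95 ± 0.26, adjusted p = 0.0161), a call lost without LH+BMP6 replicate 2 (adjusted p = 0.0505) or the 3 dim-spike arrays (adjusted p = 0.0516). The call of CD68, also among the 4, was lost in 5 of 25 alternative settings, and those of CD14 and CD3E in 0. With BMP6 against control the brightest PTPRC probe set was not called (adjusted p = 0.0695), while its other probe sets were higher (adjusted p = 0.0418 and 0.00468). The mean signal of the 9 markers ranged from 6.22 to 6.29 on control arrays, 6.03 to 6.39 with LH, 6.29 to 6.79 with BMP6 and 6.52 to 6.74 with LH+BMP6, and 1 of them, ITGAM, lay below the lower quartile in every group. Of 6 pericyte and fibroblast markers, 3 were called higher with BMP6 (DES, DCN and PDGFRA) and 0 lower (50%, against 18.1% of all probe sets). The same 3 were higher in LH+BMP6 against LH, where RGS5 (-0.84 ± 0.29, adjusted p = 0.0469) and MCAM (-0.53 ± 0.18, adjusted p = 0.0452) were lower, calls that were lost in 9 and 8 of 25 alternative settings. In that comparison 83.3% of the 6 markers were called, against 20.3% of all probe sets. The array means of the 6 markers were 7.94 to 8.36 on control arrays, 8.01 to 8.43 on LH arrays, 8.24 to 8.54 on BMP6 arrays and 8.24 to 8.40 on LH+BMP6 arrays. In BMP6 against control 0 of 7 endothelial markers were called by limma (18.1% of all probe sets were), with 0 at an unadjusted p under 0.05. In LH+BMP6 against LH 0 of 7 were called (20.3% of all probe sets were), with 4 at an unadjusted p under 0.05 and a median of -0.31. The part of these cells in the TSPO result was not tested.

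Set against all probe sets, the members were called as follows. In BMP6 against control 2 of 3 members were called (18.1% of all probe sets were), TSPO among the 8.12% higher and SCARB1 among the 9.95% lower. In LH+BMP6 against LH 3 of 3 were called (20.3% of all), TSPO among the 9.99% higher and STAR and SCARB1 among the 10.3% lower. In LH+BMP6 against control 2 of 3 were called (19.3% of all), TSPO among the 9.16% higher and SCARB1 among the 10.1% lower. In LH against control 0 of 3 were called by limma, beside 0.0125% of all probe sets (3 of 24016), while STAR and SCARB1 had an unadjusted p under 0.05, as did 1291 probe sets. Their ranges did not overlap between LH and control, which held for 3.12% of all probe sets. The ranges of all 3 members did not overlap in BMP6 against control, LH+BMP6 against LH or LH+BMP6 against control, as for 22.8%, 20.9% and 23.1% of all probe sets. In LH+BMP6 against BMP6 the ranges of all 3 overlapped, and 1.67% of all probe sets had ranges apart. The comparisons share arrays, so their calls are not independent of each other.

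**Figure D3:**
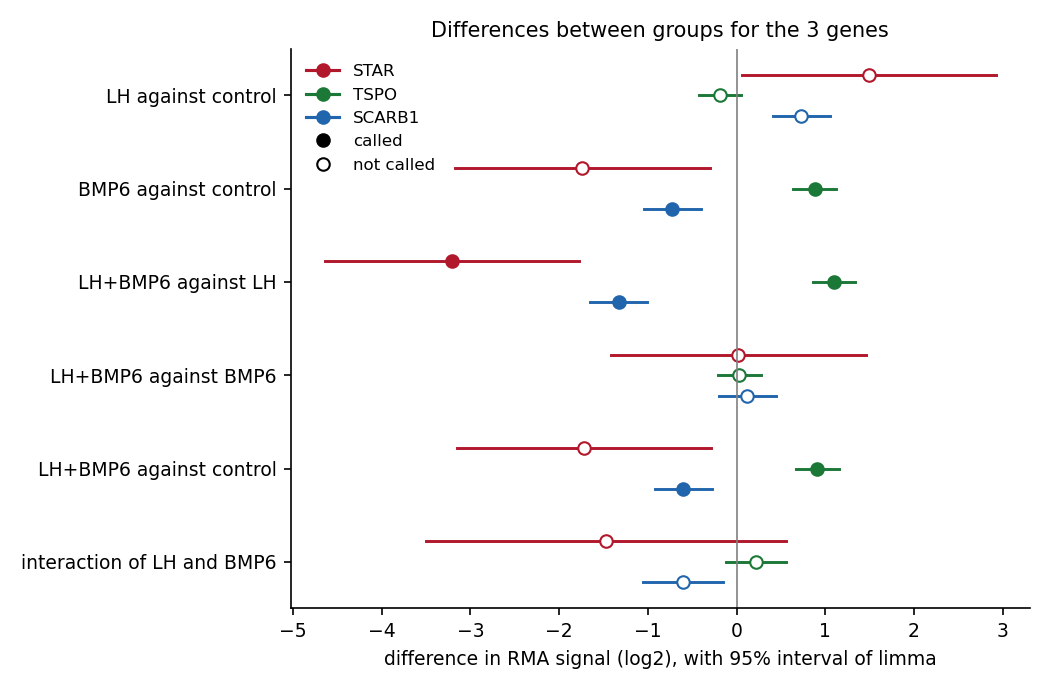
Difference in RMA signal between groups (log2, horizontal axis) for STAR, TSPO and SCARB1 in 6 comparisons (vertical axis), with 95% intervals of limma. Filled points are called (adjusted p under 0.05) and open points are not. SCARB1 and STAR lie left of 0 and TSPO right of it in each comparison that adds BMP6, while LH+BMP6 against BMP6 lies near 0 for all 3.

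When BMP6 was present, adding LH left small differences. STAR differed by 0.02 (95% interval -1.41 to 1.45), TSPO by 0.03 (-0.21 to 0.27) and SCARB1 by 0.12 (-0.20 to 0.44), each at an adjusted p of 1.00. For STAR the interval leaves room for a change in either direction as large as the difference between control and LH arrays of replicates 2 to 4. Of all probe sets, 0% were called by limma here and 471 had an unadjusted p under 0.05. The interaction compares the LH difference with BMP6 to the LH difference without it. It was -0.61 ± 0.21 for SCARB1 (95% interval -1.06 to -0.15, unadjusted p = 0.0119 and adjusted p = 1.00, limma), -1.47 ± 0.96 for STAR (-3.50 to 0.56, adjusted p = 1.00) and 0.22 ± 0.16 for TSPO (-0.12 to 0.56, adjusted p = 1.00). Without LH replicate 1 it was -0.39 for SCARB1 and -0.96 for STAR. Over all probe sets 0% were called in the interaction by limma and 773 had an unadjusted p under 0.05.

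The order of group means was LH, control, LH+BMP6, BMP6 from high to low for STAR and for SCARB1. For TSPO it was LH+BMP6, BMP6, control, LH. In all 3 orders the neighbours LH+BMP6 and BMP6 overlapped. LH and control overlapped for TSPO and were apart without a call for STAR and SCARB1. Control against the higher of the BMP6 groups was apart and called for SCARB1, and apart without a call for STAR.

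Other genes that handle cholesterol were examined by step, with 46 of 59 listed genes measured. After BMP6 2 rose and 12 fell, 30.4% against 18.1% of all probe sets, with a median difference of -0.04 (0.01 over all probe sets). With LH+BMP6 against LH 6 rose and 12 fell, 39.1% against 20.3%, with a median of -0.06 (-0.02 over all). With LH+BMP6 against control 6 rose and 12 fell, 39.1% against 19.3%, with a median of -0.04 (0.00 over all). LH alone called 0 of 46 by limma, where 0.0125% of all probe sets were called, with a median of 0.04 (0.01 over all). An unadjusted p under 0.05 was reached by 5 of 46, beside 1291 of the 24016 probe sets. LH+BMP6 against BMP6 and the interaction also called 0 of 46, and 0% of all probe sets were called in each. An unadjusted p under 0.05 by limma was reached by 0 and 2 of 46, beside 471 and 773 of all probe sets.

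Among lipoprotein receptors and their partners 1 of 6 measured genes fell and 0 rose after BMP6. It was LRPAP1, a chaperone of lipoprotein receptors (-0.92 ± 0.12, adjusted p = 6.79e-05), which fell as far with LH+BMP6 against LH (-0.92 ± 0.12). VLDLR, the very-low-density lipoprotein receptor, rose in the latter comparison (1.19 ± 0.32, adjusted p = 0.0123), although the mean of its probe sets was not called (0.46, adjusted p = 0.0577). Of 3 genes of lysosomal cholesterol release, 0 were called after BMP6 and 2 rose with LH+BMP6 against LH. They were the acid lipase LIPA (0.58 ± 0.15, adjusted p = 0.0114) and NPC2, a small carrier that hands cholesterol to NPC1 (0.22 ± 0.06, adjusted p = 0.0168). The NPC2 call was lost in 4 of 25 alternative settings, among them without LH replicate 1 or LH+BMP6 replicate 1.

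Of 5 genes of ester stores and lipid droplets, the droplet coat gene PLIN3 fell after BMP6 (-0.70 ± 0.13, adjusted p = 0.000908). With LH+BMP6 against LH, PLIN3 (-0.88 ± 0.13) and PLIN2 (-0.36 ± 0.11, adjusted p = 0.0201) fell and the ester hydrolase NCEH1 rose (1.04 ± 0.22, adjusted p = 0.00257). The PLIN2 call was lost without the 3 dim-spike arrays, LH replicate 1 or 2, or LH+BMP6 replicate 1 or 4. Among 7 intracellular sterol carriers GRAMD1A fell after BMP6 (-0.59 ± 0.14, adjusted p = 0.00792) and 0 were called with LH+BMP6 against LH by limma.

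Of 8 measured mitochondrial genes listed as partners of TSPO and STAR, 0 rose and 2 fell after BMP6, the channel gene VDAC1 (-0.33 ± 0.09, adjusted p = 0.0131) and ATAD3A, a membrane ATPase (-0.33 ± 0.06, adjusted p = 0.00121). With LH+BMP6 against LH VDAC1 fell (-0.29 ± 0.09, adjusted p = 0.0249), a call lost without LH replicate 1 or 3 or LH+BMP6 replicate 2 or 3. Without the 3 dim-spike arrays VDAC1 was called in neither comparison (adjusted p = 0.0785 after BMP6). Both measured genes of side-chain cleavage fell after BMP6. CYP11A1 went from 11.25 ± 0.06 in control to 9.05 ± 0.24 (-2.21 ± 0.16, adjusted p = 1.58e-07), and FDX1 from 11.74 ± 0.05 to 11.34 ± 0.02 (-0.40 ± 0.12, adjusted p = 0.0263). The FDX1 call was lost without control or BMP6 replicate 2 or 4. With LH+BMP6 against LH the falls were -2.61 ± 0.16 and -0.79 ± 0.12. Of 2 efflux genes APOE, an apolipoprotein, fell (-0.87 ± 0.15 after BMP6, adjusted p = 0.000757, and -0.80 ± 0.15 with LH+BMP6 against LH).

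Regulators changed in both directions, with 2 of 13 higher and 4 lower after BMP6 (46.2%, against 18.1% of all probe sets). With LH+BMP6 against LH 2 were higher and 5 lower (53.8%, against 20.3% of all probe sets). The differences that follow are those of BMP6 against control. NR5A1 fell from 9.50 ± 0.16 to 7.95 ± 0.04 (-1.55 ± 0.10, adjusted p = 2.91e-08), or by 0.92 as the mean of its probe sets. SCAP, the sterol-sensing escort of SREBP factors, fell (-0.87 ± 0.11, adjusted p = 4.63e-05), or by 0.32 as the mean of its probe sets. NR0B1, a repressor of NR5A1 and of STAR, fell from 5.46 ± 0.28 to 4.15 ± 0.42 (-1.31 ± 0.20, adjusted p = 0.000202), which ends near the lower quartile of the arrays, and its other probe set was not called (0.05 ± 0.11, adjusted p = 0.812). SREBF2 was the other regulator that fell (-0.55 ± 0.15, adjusted p = 0.0129), or by 0.30 as the mean of its probe sets. GATA6 (0.38 ± 0.09, adjusted p = 0.00541) and CEBPB (0.56 ± 0.16, adjusted p = 0.0228) rose, all 3 named after their values were seen. The SREBF2 call was lost without control replicate 2 and the CEBPB call without control replicate 2 or 4 or BMP6 replicate 2. GATA4, a zinc-finger factor of the STAR promoter also named after its values were seen, stood between 9.21 and 9.78 on all 16 arrays.

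**Figure D4:**
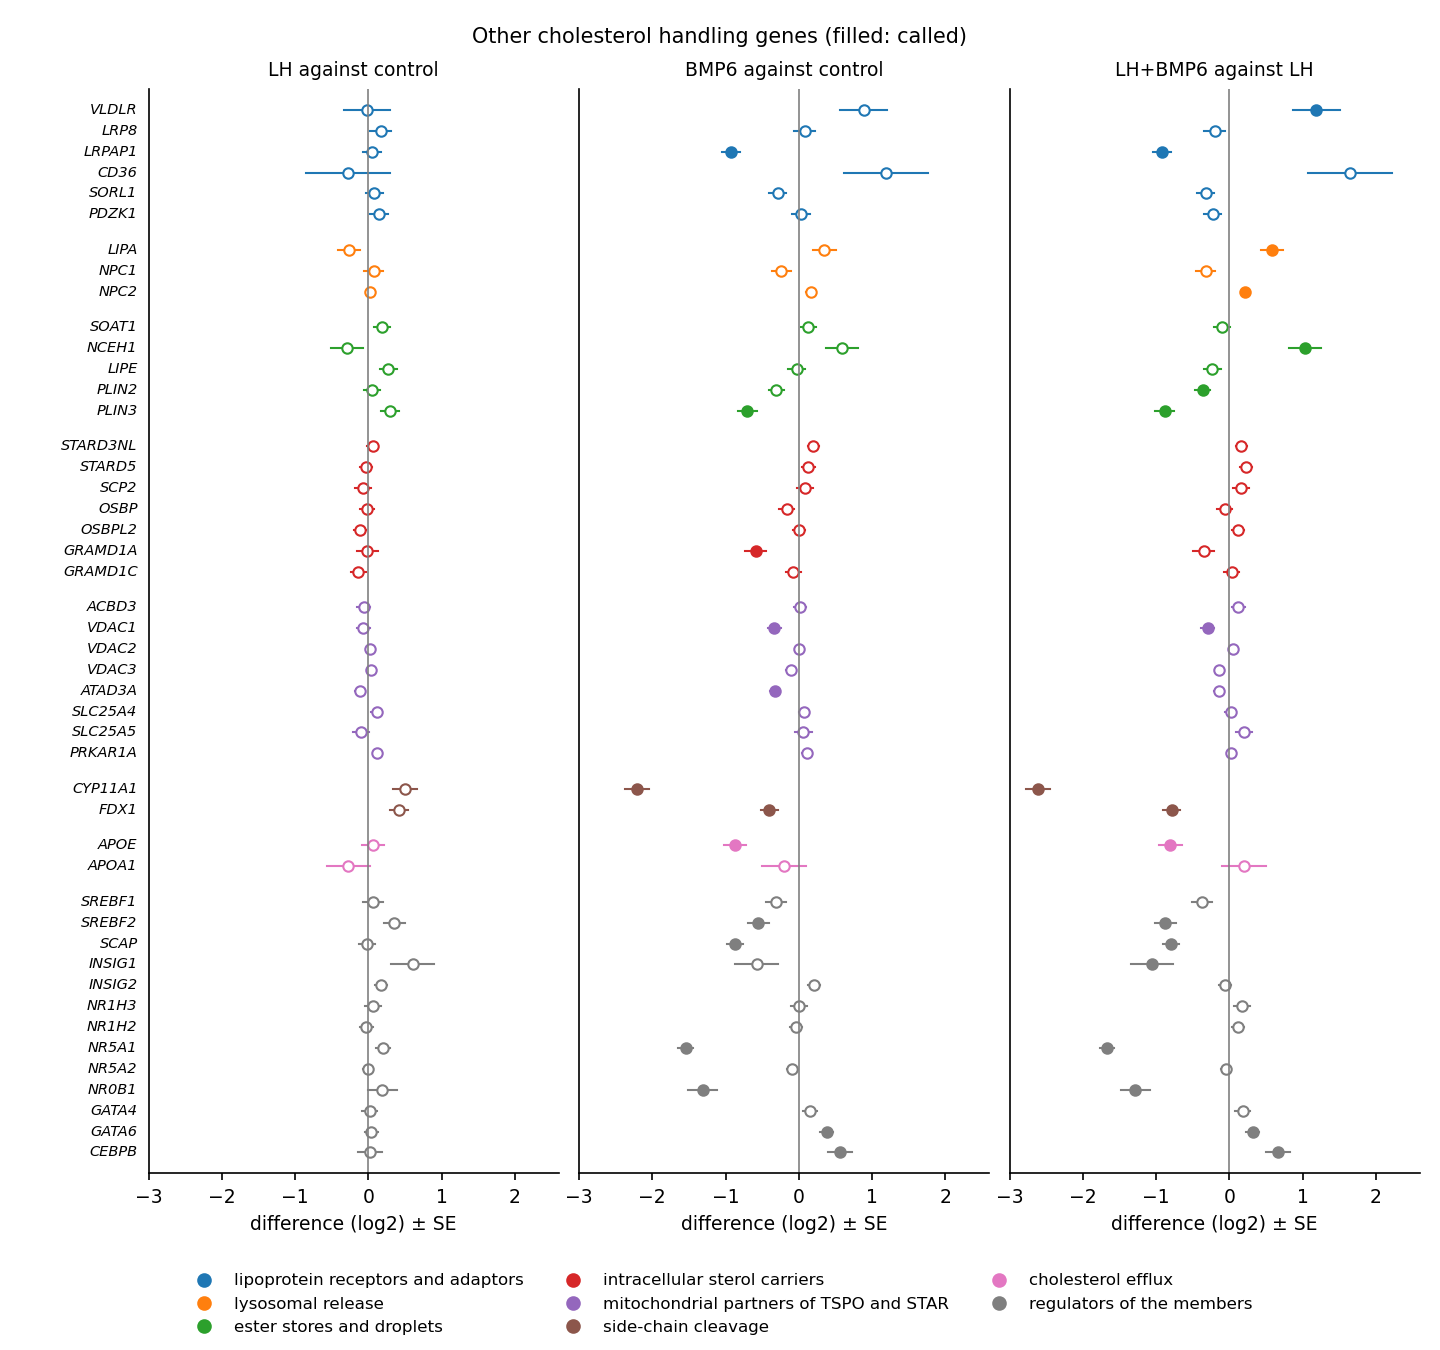
Difference ± SE of limma (log2, horizontal axes) for 46 other cholesterol handling genes (rows, grouped by step with a colour each) in LH against control, BMP6 against control and LH+BMP6 against LH. Filled points are called, 0 of 46 in the left panel, 14 in the middle and 18 in the right, and CYP11A1 and NR5A1 lie farthest to the left in the middle and right panels.

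The genes whose signals over the 16 arrays were most like those of each member differed between members. Likeness was measured by Pearson's r over the 16 arrays, which share the group differences, and r of the deviations from the group means was taken beside it. STAR was most like OSR2, a zinc-finger transcription factor gene (r = 0.96, and 0.87 for the deviations), followed by PLEKHH3 (0.92), R3HCC1 (0.91), TMEM120A (0.90) and TSPAN17 (0.90). OSR2 followed STAR on the BMP6 arrays, at 6.98, 6.62, 7.48 and 7.40 on replicates 1 to 4, over a far smaller range. SCARB1 was most like LOC767968, known by a locus number alone (0.98), and FDX1 (0.98, and 0.89 for the deviations), then COPS9 (0.97), the sterol reductase gene TM7SF2 (0.97) and GCAT (0.96). FDX1 had its highest value on the same array as SCARB1, LH replicate 1 (12.65, against 11.89 to 12.13 on the other LH arrays). The deviations of SCARB1 (0.63) and FDX1 (0.49) were also largest on this dim-spike array, so the 0.89 leans on it. That r was not taken again without the array. TSPO was most like REEP5, which shapes the endoplasmic reticulum (0.98), EAF1 (0.98), the nuclear import gene KPNA3 (0.97), INPP1 (0.97) and MICALL1 (0.96).

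Between the members themselves r over the 16 arrays was 0.82 for STAR and SCARB1, -0.81 for STAR and TSPO and -0.83 for TSPO and SCARB1. Once the group means were taken out, these values were 0.34, -0.36 and 0.13. Deviations of SCARB1 had r = 0.76 with those of CYP11A1, and deviations of STAR had r = 0.16 with them. The value of 0.76 leans on LH replicate 1, a dim-spike array with the largest deviation of both SCARB1 (0.63) and CYP11A1 (0.64). It was not taken again without that array. The deviations of STAR had r = 0.64 with LHCGR, the LH receptor gene. All these r values are descriptions over 16 arrays, which differ in spike signal and share the group differences.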

How the data were processed

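Log2 signals of 24128 probe sets on 16 arrays were used as deposited. The authors' log2 values came from robust multi-array average (RMA) in Affymetrix Expression Console, per the submitters' processing notes, which name no version, and 0 value columns were left unused. After 112 Affymetrix control probe sets were set aside, 24016 were tested with no filter on signal. The platform annotation gives 1 symbol to 13292, several to 86 and none to 10638. A gene stands for its brightest probe set by mean.

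Probe sets were fitted with limma 3.58.1 in R 4.3.3 (lmFit with a coefficient per group, eBayes with an intensity trend), without a replicate block, and p values were adjusted by Benjamini-Hochberg. The fit was tested on simulated independent normal values with the same SD in all 4 groups. STAR departs from that setting (SD 0.22 in control, 1.45 with BMP6), so the simulation does not cover it. Figures were drawn with matplotlib 3.10.9 in Python 3.11.15. The labels do not say array by array which replicates came from separate ovary batches, so p values measure the spread between these arrays. The number of arrays limits the precision (median SE 0.10).

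The members and gene lists were chosen with earlier results of these data known. Within each step the text names up to 3 called genes with the smallest adjusted p in BMP6 against control. The same was done for LH+BMP6 against LH, except for the regulators, which were only counted there. Listed genes called in LH+BMP6 against control were counted and not named. Regulators beyond this rule are marked as named after their values were seen. For likeness the 5 genes with the highest r are named. Alternatives were the replicate block as a fixed term or random effect (statmod 1.5.0), eBayes without the trend or robust, only the arrays compared, probe sets under the 40th percentile of mean signal left out, quantile normalization, the mean of a gene's probe sets, the 3 dim-spike arrays left out, and each array left out in turn. Following these for each called listed gene was added after seeing the data. No coordinates or sequences are printed.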

Additional observations from a re-analysis of the deposited data

Results flagged for a closer look

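In 12 groups of 4 arrays (3 genes in 4 groups), 2 held an array far from the other 3 by Dixon's 95% critical value, which chance reaches in about 5% of groups. STAR on LH replicate 1 was 11.47, 1.97 above the next array, a gap that made up 0.93 of the range of its group. The hybridisation-control mean of that array was 8.71, among the 3 low ones, and SCARB1, CYP11A1, FDX1 and CYP17A1 also had their highest LH values on it. TSPO on LH+BMP6 replicate 2 was 11.11, 0.30 above the next array (0.84 of the range).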

How the results depend on the processing

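Of 18 results (3 genes in 6 comparisons), 14 kept their direction and their side of the threshold under all alternatives run. Every call of SCARB1 and TSPO held, with adjusted p up to 0.0319, as did the call of STAR in LH+BMP6 against LH (-3.63 to -2.64, adjusted p up to 0.0207). With single arrays left out, STAR ranged from -2.23 to -1.24 in BMP6 against control and from -2.14 to -1.15 in LH+BMP6 against control, each called in 1 such setting. With only the arrays compared, STAR was called in LH+BMP6 against control at the same -1.72. In LH+BMP6 against BMP6 STAR ranged from -0.47 to 0.59 and TSPO from -0.052 to 0.068. STAR turned negative without BMP6 replicate 1 (-0.31) or 2 (-0.47) or LH+BMP6 replicate 3 (-0.34) or 4 (-0.40), and TSPO without LH+BMP6 replicate 2 (-0.052). Without the 3 dim-spike arrays the STAR difference of LH from control was 0.90.

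With the replicate block, no call of a member changed. STAR in BMP6 against control then had an adjusted p of 0.063 at -1.74, and SCARB1 in LH against control 0.275 at 0.73. As a check of pairing, deviations of arrays with the same number correlated at 0.02 to 0.32 for control and LH, -0.11 to 0.15 for control and BMP6, 0.09 to 0.27 for LH and LH+BMP6 and 0.08 to 0.69 for BMP6 and LH+BMP6, and in none of these were all 4 pairs above 0.1, the level set for taking numbers as pairs. The mean for equal numbers was 0.16, 0.038, 0.20 and 0.38 in that order, against -0.050, -0.011, -0.065 and -0.12 for unequal numbers. Deviations from a group mean cancel within the group, so the means for unequal numbers largely follow from those for equal numbers. These values do not settle whether same-numbered arrays share a source. The count of called listed genes stayed within 12 to 20 in BMP6 against control and 14 to 21 in LH+BMP6 against LH. In LH+BMP6 against control it ran from 13 to 20.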
